A study of Homo sapiens with 72 samples.

Results

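The genes described here are 10 genes of the smooth muscle contractile apparatus, measured in cultured human lung fibroblasts after exposure to α-particles. They are ACTA2, ACTG2, MYH11, MYLK, TAGLN, CNN1, LMOD1, TPM1, TPM2 and MYOCD, out of 30142 gene names on the array. All probes that carry one of these names were taken, which gave 19 of the 41000 probes, and all 19 passed the filter on dim probes that kept 25246. The genes were chosen by their log2 ratios of irradiated and bystander cells to control, so those ratios and the calls made on them are given as a description, with no p-value, and support nothing.

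The cells were IMR-90, a widely used strain of normal human lung fibroblasts with a limited lifespan in culture, taken at early passage. Irradiated cells received 50 cGy of α-particles through the thin base of a dish. Bystander cells grew in the same dish on a shielded base that the particles could not cross, and control cells were sham-irradiated. RNA was taken at 6 times between 0.5 and 24 hours in 4 experiments, which gave 72 arrays in 18 groups of 4. Irradiated and bystander cells of an experiment shared a dish and are compared with the same control array, so their 2 ratios are not independent of each other. The labels name no other agent or gene change for any group, and the model is limited to 1 cell strain in culture.

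Contractile force in smooth muscle comes from myosin pulling on actin filaments. MYH11 encodes the smooth muscle myosin heavy chain, MYLK the kinase that switches myosin on, and ACTA2 and ACTG2 the smooth muscle actins. TAGLN, CNN1, LMOD1, TPM1 and TPM2 encode proteins that bind and arrange the actin filament. MYOCD encodes myocardin, a co-activator of serum response factor (SRF), and SRF binds the CArG box in the promoters of many of these genes. Fibroblasts that turn into myofibroblasts, as in wound repair and lung fibrosis, are known for making ACTA2 and other proteins of this set.

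The probes that gave the lowest values were those of MYH11. Both are 60 bases long and lie at the end of its coding sequence, and the 17 bases in capitals are shared by both, so the pair gives no independent readings of the gene. The 60-base probe of ACTA2 also lies in coding sequence, which is much alike among actin genes, and the binding of other actin transcripts to this probe was not tested.
MYH11, probe A_23_P206920: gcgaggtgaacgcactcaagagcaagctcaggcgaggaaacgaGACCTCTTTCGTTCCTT
MYH11, probe A_24_P70183: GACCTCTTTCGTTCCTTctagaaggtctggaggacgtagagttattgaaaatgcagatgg
ACTA2, probe A_23_P150053: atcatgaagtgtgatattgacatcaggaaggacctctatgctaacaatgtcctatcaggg

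The promoter sequences of RefSeq (build GRCh38.p14) held 7 of the 10 genes, in 9 windows that ran from 250 bases before to 50 after the start site. MYH11, TAGLN and MYOCD had no window in that table. The CArG box, which reads the same on both strands, was found in the windows of ACTG2 and MYLK, and in 1.29% of 35116 windows in all. Of 76 other contractile and SRF pathway genes with a window, 14 held it. ACTG2 had 2 boxes, starting at positions -110 and -73, and MYLK had 1, starting at position -94. The 250 bases before each start site are given with the boxes in capitals, for ACTG2 at chr2:73892758-73893007 on the plus strand and for MYLK at chr3:123620549-123620798 on the minus strand. The match is of letters only, and the lack of a match in the other 5 genes concerns these windows only.
ACTG2 promoter: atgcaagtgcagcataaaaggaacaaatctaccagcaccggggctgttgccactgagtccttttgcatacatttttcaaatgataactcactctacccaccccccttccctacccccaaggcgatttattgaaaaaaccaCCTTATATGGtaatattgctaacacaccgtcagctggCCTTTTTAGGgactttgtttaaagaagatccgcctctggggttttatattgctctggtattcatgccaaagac
MYLK promoter: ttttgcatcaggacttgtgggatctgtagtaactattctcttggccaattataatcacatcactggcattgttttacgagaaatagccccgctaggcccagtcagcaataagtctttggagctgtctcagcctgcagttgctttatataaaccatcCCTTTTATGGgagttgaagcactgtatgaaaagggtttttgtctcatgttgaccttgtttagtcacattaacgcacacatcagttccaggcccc

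Levels are log2 intensities after each array was scaled to the same 75th percentile. Of the 19 probes, 18 were well above background on all 72 arrays, and the MYOCD probe on 66. None of the 19 was saturated. On each array 65.7% to 76.9% of all spots passed that test. Each time point took 3 slides of 4 arrays, and each slide held all 3 treatments.

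The fibroblast label was checked against markers. Of 11 fibroblast markers on the array, 10 were well above background on all 72 arrays, and the brightest was COL1A2, a collagen chain. Of 9 smooth muscle markers, 8 were well above background on all arrays. Of the markers of other cell types, 3 of 6 endothelial, 3 of 7 epithelial, 3 of 6 leukocyte and 1 of 9 striated muscle genes were well above background on all arrays. Those of endothelium were VWF, KDR and TEK, and those of epithelium KRT14, KRT19 and SFTPC. Those of leukocytes were CD14, CD3E and CD68, and that of striated muscle was MYOD1. TNNT2 and MYOG of striated muscle were so on 70 and 68 arrays, CLDN5 of endothelium on 69 and ITGAM of leukocytes on 64. In contrast, CDH1 of epithelium, PTPRC of leukocytes and MYH7 of striated muscle were well above background on 0 arrays, PECAM1 of endothelium on 2 and KRT5 on 1.

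At most times 1 experiment stood apart from the others. From 1 to 24 hours it was the experiment numbered 3, and at 0.5 hours the one numbered 4. The methods follow each replicate through the time course as the same experiment. In experiment 3 at 1 to 24 hours, 92 of 95 ratios of irradiated to control were below 0 on the log2 scale with a median of -1.23, and 57 were at least 2-fold lower. Of all tested probes in that experiment, 51.4% of ratios were below 0 and 3.24% at least 2-fold lower. The bystander cells of experiment 3 gave 91 of 95 below 0, with a median of -1.30. In the other experiments at these times the medians in irradiated cells were 0.04, 0.19 and 0.03 for experiments 1, 2 and 4, and in bystander cells -0.16, -0.04 and -0.03. The median of experiment 4 covers genes that went both ways. After irradiation 13 of its 95 ratios were at least 2-fold lower and 10 at least 2-fold higher. Of all tested probes in that experiment, 6.83% of ratios were at least 2-fold lower, and the share at least 2-fold higher was not counted. MYH11 was below and TAGLN above control at each of these times. Means without the experiment that stood apart are given below for most of the genes.

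**Figure D1:**
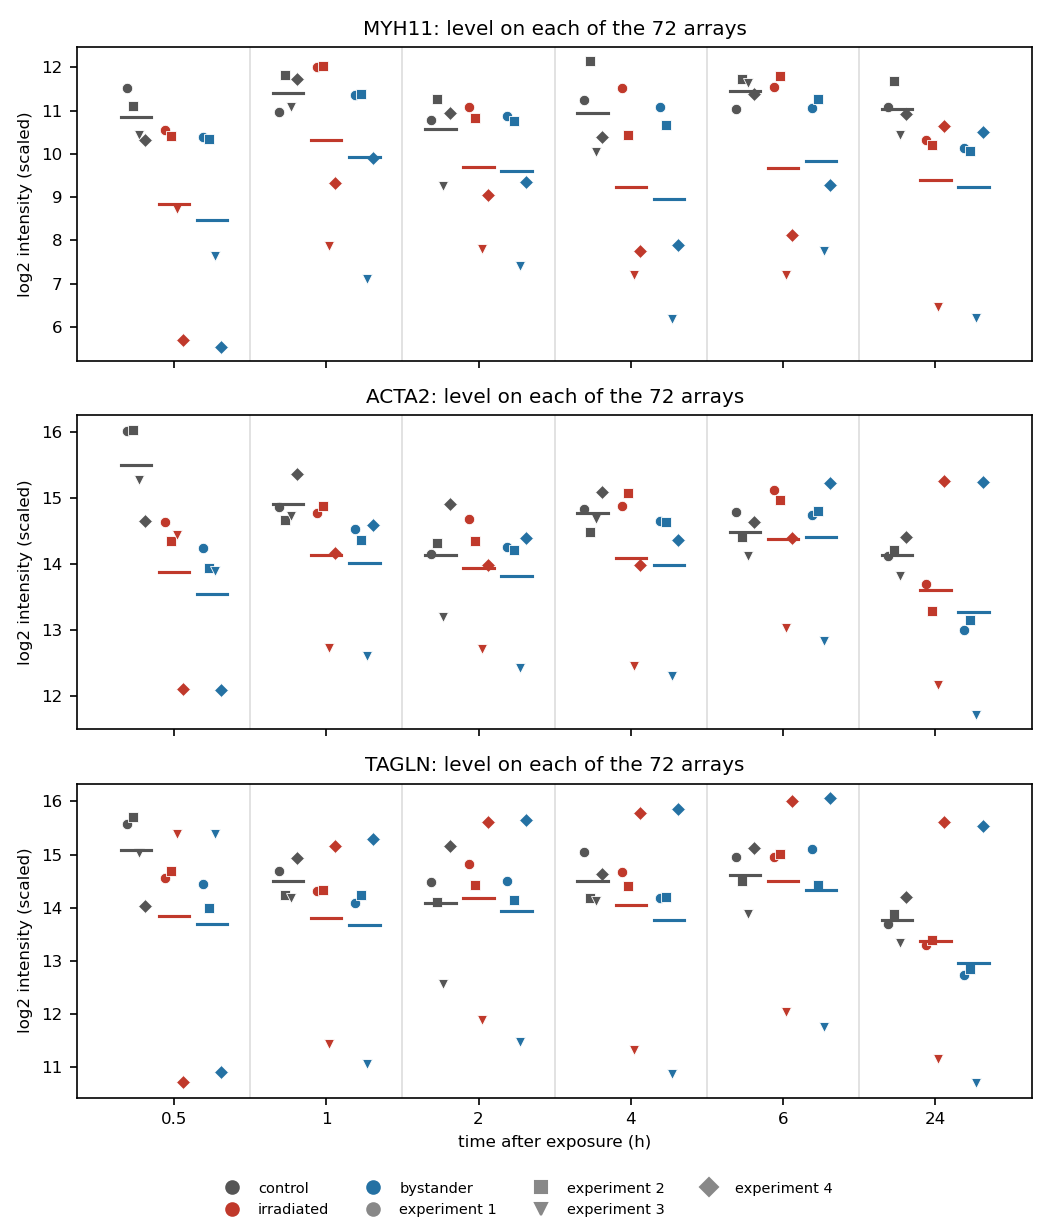
Level of MYH11, ACTA2 and TAGLN (log2 intensity scaled to the same 75th percentile, vertical axis) on each of the 72 arrays by time after exposure in hours (horizontal axis), with colour for treatment, marker shape for experiment and a bar for the mean of 4 arrays. Treated arrays numbered 4 at 0.5 hours and 3 at later times lie lowest for MYH11 and ACTA2, while the TAGLN levels of treated cells in experiment 4 lie above their controls from 1 hour on.

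At 0.5 hours all 19 probes had a mean below control, both in irradiated cells and in bystander cells. Taken over the 19 probes, the median ratio was -0.65 in irradiated and -0.89 in bystander samples, where all tested probes had 0.00 and -0.02. At 2 hours the medians were 0.08 and -0.06, and 9 and 13 of the 19 probes were below control. At 4 hours they were -0.45 and -0.53, at 6 hours -0.06 and -0.15, and at 24 hours -0.53 and -0.68. The values at 1 hour, -0.29 and -0.43, lay between those at 0.5 and 2 hours. Arrays of different times lay on different slides, so no test was made between times. Bulk RNA does not tell apart fewer cells that make a transcript and less transcript in each cell.

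At 0.5 hours the fit called 7 member probes lower in irradiated and 9 in bystander cells at an adjusted p below 0.10. Of all 25246 probes, 3.14% were called lower after irradiation and 2.60% in bystander cells at this time. The rule used these contrasts, and nothing is read from the counts. At 6 hours the MYOCD probe was called lower after irradiation, where 5.24% of all probes were. No member was called at another time, where the array-wide share called was 0% at 1 hour in both contrasts, 4.68%, 0.796% and 0.194% at 2, 4 and 24 hours in irradiated cells, and 0.0634%, 0.499%, 0.305% and 0% at 2, 4, 6 and 24 hours in bystander cells. At 1 hour limma gave 6262 and 3448 probes of the array an unadjusted p below 0.05.

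The calls depended on the arrays and settings used, and each count is given with the share of all probes called in the same fit. Without experiment 1 the members called at 0.5 hours were 6 (3.6% of the array) in irradiated and 3 (0.705%) in bystander cells, and without experiment 2 there were 0 in both, where 0 and 7 probes of the whole array were called. Leaving out experiment 3 gave 7 (5.95%) and 11 (4.56%), and leaving out experiment 4 gave 1 (1.43%) and 7 (2.37%). With slide added as a fixed block they were 4 (2.11%) and 3 (1.13%), and with no block for the experiment 0 (0.0515%) and 0 (0.0673%). The MYOCD call at 6 hours was lost without the filter on dim probes, with normexp, with slide as a fixed block, with no block for the experiment and without experiment 1, 2 or 4. A single fit to all 72 arrays called 1, 3 and 1 members at 4, 6 and 24 hours after irradiation, where it called 3.16%, 23.9% and 5.72% of all probes, and for bystander cells 1 member at 4 hours (2.07%) and 3 at 24 hours (2.89%). Without experiment 1 both MYH11 probes were called at 4 hours in irradiated (0.099%) and bystander cells (0.0515%). With slide as a fixed block 1 member was called at 4 hours after irradiation (1.34%), and without experiment 4 there was 1 at 2 hours (14.3%). Without experiment 3 there were 2 at 6 hours (7.04%). With normexp both MYH11 probes were called at 2 hours in irradiated (2.22%) and bystander cells (1.66%), and 1 of them at 4 hours in bystander cells (0.832%). Without scaling 2 members were called at 4 hours (0.658%) and 2 at 24 hours (0.273%) after irradiation, and 2 (14.8%) and 1 (0.0594%) in bystander cells.

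**Figure D2:**
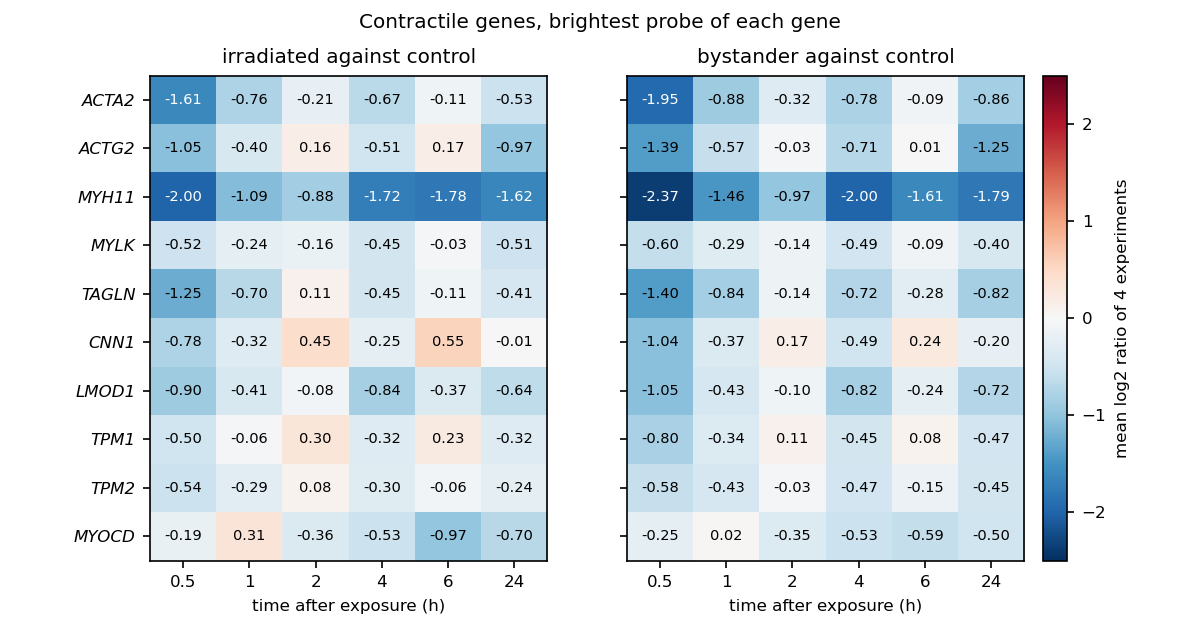
Mean log2 ratio to control over 4 experiments for the brightest probe of each of the 10 genes (rows) at each time in hours (columns), for irradiated cells (left) and bystander cells (right), with blue for lower and red for higher than control. The values at 0.5 hours run from -2.00 to -0.19 after irradiation and from -2.37 to -0.25 in bystander cells, and MYH11 is at or below -0.88 at every time.

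MYH11 had the lowest ratios of the set. At 0.5 hours its brighter probe read 11.52, 11.11, 10.43 and 10.32 in the controls of experiments 1 to 4. The irradiated cells read 10.54, 10.41, 8.73 and 5.70, and the bystander cells 10.38, 10.35, 7.64 and 5.54. Each treated array was below its own control, but the groups overlapped, because the irradiated and bystander cells of experiments 1 and 2 were above the lowest control. The mean ratio was -2.00 ± 1.80 (SD, n = 4), or 4.00-fold lower, after irradiation and -2.37 ± 1.84, or 5.16-fold lower, in bystander cells. Without experiment 4 these were -1.13 and -1.56. The second probe gave -1.83 and -2.19.

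MYH11 was also low at the later times, but not in all experiments. At 6 hours the irradiated cells read 11.53, 11.80, 7.21 and 8.13 against controls of 11.04, 11.74, 11.64 and 11.37. Experiments 1 and 2 were thus slightly above control, and experiments 3 and 4 far below it, with ratios of -4.44 and -3.25. The mean ratio was -1.78 ± 2.43 (SD, n = 4) and was -0.90 without experiment 3. At 4 hours the mean ratios were -1.72 ± 1.43 after irradiation and -2.00 ± 1.56 in bystander cells, and -1.35 and -1.38 without experiment 3. At 24 hours all 4 ratios were below 0 in both treatments, as for 8.05% of probes after irradiation and 8.76% in bystander cells. Experiment 3 was the lowest, at -3.97 and -4.22. The 24-hour means were -1.62 ± 1.64 and -1.79 ± 1.69, and without experiment 3 they were -0.84 and -0.99.

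MYLK encodes the kinase that phosphorylates the myosin light chain. At 0.5 hours its brighter probe gave mean ratios of -0.52 ± 0.54 (SD, n = 4) and -0.60 ± 0.49 in irradiated and bystander cells, and -0.29 and -0.42 without experiment 3. Its second probe gave -0.53 and -0.67, and the bystander arrays of that probe all lay below the controls, as did those of 3.34% of all tested probes. At 24 hours the brighter probe gave -0.51 ± 0.69 and -0.40 ± 0.70, and in experiment 3 alone -1.52 and -1.33. Without that experiment the 24-hour means were -0.17 and -0.10.

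Among the actins, ACTA2 had the lower ratios at 0.5 hours. The controls read 16.01, 16.03, 15.27 and 14.64, the irradiated cells 14.63, 14.34, 14.44 and 12.11, and the bystander cells 14.23, 13.94, 13.89 and 12.08. All 8 treated arrays lay below all 4 controls, though the closest pair almost touched. Such a separation was found for 4.19% of all tested probes after irradiation and 3.34% in bystander cells. The mean ratios were -1.61 ± 0.71 (SD, n = 4), or 3.05-fold lower, and -1.95 ± 0.50, or 3.87-fold lower. Without experiment 4 they were -1.30 and -1.75. Over the pairs whose arrays shared a slide, the ACTA2 means were -1.58 in irradiated cells (3 pairs) and -1.58 in bystander cells (2 pairs). These bystander pairs were those of experiments 1 and 3 and left out experiment 4.

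ACTA2 was close to control at 6 hours, with mean ratios of -0.11 ± 0.73 and -0.09 ± 0.84, and turned to 0.21 and 0.31 without experiment 3. At 24 hours experiments 1, 2 and 3 gave -0.41, -0.92 and -1.64 after irradiation, while experiment 4 gave 0.85. The bystander values at that time were -1.12, -1.06, -2.10 and 0.84, so experiment 4 was opposite to the others in both.

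ACTG2, the enteric smooth muscle actin, was the brightest of the smooth muscle markers. At 0.5 hours its controls read 16.92, 16.86, 16.94 and 16.30, the irradiated cells 16.28, 16.46, 15.85 and 14.23, and the bystander cells 15.91, 16.12, 15.66 and 13.77. The bystander cells lay wholly below the controls, which was so for 3.34% of all tested probes, and the irradiated cells overlapped with 1 of them. The mean ratios were -1.05 ± 0.74 (SD, n = 4) and -1.39 ± 0.79, and -0.71 and -1.01 without experiment 4. At 24 hours they were -0.97 ± 1.47 and -1.25 ± 1.60, and experiment 3 alone gave -3.12 and -3.60. Without it the means were -0.25 and -0.46.

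Of the actin-binding proteins, TAGLN, or transgelin, differed most between experiments. At 0.5 hours its brighter probe read 15.58, 15.71, 15.02 and 14.04 in controls and 14.56, 14.69, 15.39 and 10.73 in irradiated cells. Experiment 3 was thus 0.37 above its control and experiment 4 was -3.31 relative to its own. The mean ratios were -1.25 ± 1.52 (SD, n = 4) and -1.40 ± 1.44 in irradiated and bystander cells, and -0.56 and -0.83 without experiment 4. At 4 hours the irradiated ratios of experiments 1 to 4 were -0.38, 0.22, -2.80 and 1.16, and the bystander ratios -0.87, 0.01, -3.26 and 1.22. The 4-hour means, -0.45 and -0.72, became 0.33 and 0.12 without experiment 3.

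LMOD1, leiomodin 1, which starts new actin filaments, showed groups fully apart at 0.5 hours. Its controls read 11.12, 11.20, 11.29 and 10.70, the irradiated cells 10.63, 10.65, 10.68 and 8.75, and the bystander cells 10.51, 10.47, 10.47 and 8.65. The highest irradiated array and the lowest control almost touched, and 4.19% and 3.34% of all tested probes had such a separation in irradiated and bystander cells. The mean ratios were -0.90 ± 0.70 (SD, n = 4) and -1.05 ± 0.67. CNN1, or calponin 1, gave -0.78 ± 0.72 and -1.04 ± 0.85 at this time. Without experiment 4 the means of LMOD1 were -0.55 and -0.72 and those of CNN1 -0.42 and -0.62. At 24 hours LMOD1 gave -0.64 and -0.72, and -0.24 and -0.33 without experiment 3. Among the brightest probes CNN1 had the highest later values, with mean ratios of 0.45 ± 0.48 at 2 hours and 0.55 ± 1.19 at 6 hours in irradiated cells. At 6 hours experiment 3 gave -1.22 while the other 3 gave 1.33, 0.99 and 1.09. Without experiment 3 the means of CNN1 were 0.62 at 2 hours and 1.14 at 6 hours.

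The tropomyosins, which lie along the actin filament, differed between genes and probes. The brighter TPM2 probe read 17.67, 17.64, 18.29 and 17.56 in controls at 0.5 hours, 17.29, 17.41, 17.49 and 16.82 in irradiated cells and 17.33, 17.15, 17.50 and 16.87 in bystander cells. Treated arrays were all below the controls, as for 4.19% of all tested probes in irradiated and 3.34% in bystander cells. The mean ratios were -0.54 ± 0.28 (SD, n = 4) and -0.58 ± 0.20, with the smallest spread between experiments of the 10 genes, and the second probe gave -0.81 and -0.89. TPM1 had 6 probes, among which the 0.5-hour means ran from -0.65 to -0.10 after irradiation and from -0.95 to -0.27 in bystander cells. Its brightest probe gave -0.50 and -0.80 at that time, and -0.17 and -0.40 without experiment 4. At 6 hours they ran from -0.05 to 0.69 and from -0.16 to 0.57, so the probes differed in sign. The brightest probe gave 0.23 and 0.08 at 6 hours, and 0.69 and 0.57 without experiment 3. At 2 hours in irradiated cells the 2 probes of TPM2 gave 0.08 and -0.20, and those of TAGLN 0.11 and -0.16. Several TPM1 transcripts are made by alternative splicing, and the probes carry 3 different transcript accessions.

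MYOCD was dim. At 0.5 hours its mean ratios were -0.19 ± 0.62 (SD, n = 4) and -0.25 ± 0.52, and without experiment 1 they were 0.02 and -0.14. With normexp the bystander mean turned to 0.59. At 6 hours its controls read 7.09, 7.08, 6.40 and 6.37 and the irradiated cells 5.91, 5.47, 6.33 and 5.36, with a mean ratio of -0.97 ± 0.65. The bystander cells read 6.71, 5.47, 6.52 and 5.88, a mean ratio of -0.59 ± 0.73, and -0.25 without experiment 2. The irradiated cells lay below all controls at 6 hours, which was so for 4.04% of all tested probes, and the bystander cells overlapped with them. In experiment 3 MYOCD was close to its control at 6 hours, at -0.07 and 0.12. At 24 hours after irradiation experiment 3 gave -1.27, the lowest of the 4, and experiment 4 gave 0.35, while the bystander ratios of experiments 3 and 4 were -0.10 and 0.00.

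**Figure D3:**
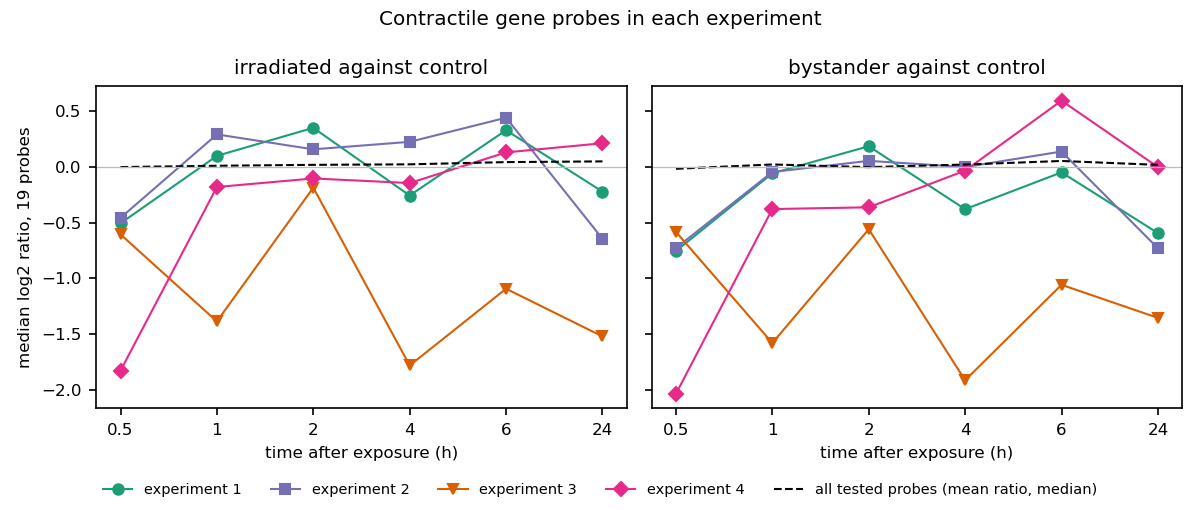
Median log2 ratio to control of the 19 probes (vertical axis) in each of the 4 experiments by time in hours (horizontal axis), for irradiated cells (left) and bystander cells (right), with the median of all tested probes as a dashed line. Experiment 4 is lowest at 0.5 hours, at -1.83 and -2.03, and experiment 3 from 1 hour on, down to -1.78 and -1.91 at 4 hours.

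The spread between experiments was wide at all times but 2 hours. At 0.5 hours the medians of the 19 probes in irradiated cells were -0.51, -0.46, -0.61 and -1.83 in experiments 1 to 4, so all 4 were below 0. At 24 hours they were -0.22, -0.65, -1.52 and 0.21. Without experiment 3 the median over probes was -0.02 at 1 hour, -0.08 at 4 hours and -0.17 at 24 hours after irradiation, and -0.12, -0.23 and -0.33 in bystander cells. At 6 hours it was 0.21 and 0.22. At 0.5 hours the medians without experiment 4 were -0.47 and -0.62. Over pairs that shared a slide, the mean of these medians at 0.5 hours was -0.98 in irradiated and -0.67 in bystander cells, against -0.85 and -1.03 over all pairs. The irradiated pairs were those of experiments 1, 3 and 4. The bystander pairs were those of experiments 1 and 3, without experiment 4, which was lowest at that time. A shared slide and the choice of experiments cannot be told apart here. The irradiated and control arrays of experiments 3 and 4 shared a slide at each time, while the bystander array of experiment 3 shared one with its control only at 0.5 hours.

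Marker lists were set beside these values. Of the 9 smooth muscle markers 7 are genes of the set, so their sum restates the values of the set and is no outside reading. In experiment 3 the summed level of the 9 smooth muscle markers relative to control, in irradiated cells and in order of time from 1 to 24 hours, was -1.69, -0.16, -1.94, -1.13 and -2.42. The summed level of 11 fibroblast markers in the same cells was -0.37, 0.02, -0.22, 0.13 and -0.56. In irradiated cells of experiment 4 the fibroblast markers lay between -0.86 and -0.64 at these times. The smooth muscle markers there gave -0.59, -0.26, 0.03, 0.53 and 0.44, so the fibroblast list was the lower at each of these times. At 0.5 hours the smooth muscle markers gave -0.86, -0.76, -0.66 and -2.22 in irradiated cells of experiments 1 to 4 and the fibroblast markers -0.22, -0.10, -0.83 and -0.30. In experiment 3 at 0.5 hours the fibroblast list was thus the lower of the 2, and so it was in the bystander cells of that experiment. The 6 endothelial markers, of which TEK was the brightest, lay between -0.10 and 0.46 in experiment 3 at 1 to 24 hours after irradiation. The 6 leukocyte markers, led by CD68, lay between 0.01 and 0.46, the 7 epithelial ones, led by SFTPC, between -0.47 and 0.43, and the 9 striated muscle ones, led by MYOD1, between -0.73 and 0.20. At 0.5 hours the leukocyte sum was above control in all 4 experiments, by 0.26 to 0.63 in irradiated and 0.24 to 0.52 in bystander cells. The same was so at 24 hours, by 0.18 to 0.61 and 0.13 to 0.66. It was also so at 2 hours in irradiated cells, by 0.11 to 0.23, and at 4 hours in bystander cells, by 0.04 to 0.41. The epithelial sum at 0.5 hours lay between -0.52 and -0.41 in irradiated cells and between -0.75 and 0.11 in bystander cells. The part of other cell types in the result was not tested.

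Irradiated and bystander cells were then compared with each other, a contrast that the choice of genes did not use. No member probe differed at any time in limma, with a smallest adjusted p of 0.993 over the 19 probes and 6 times, and 0 of the 114 values had an unadjusted p below 0.05. On the whole array 12 probes were called at 2 hours, or 0.0475% of those tested, and 0% at each other time. The mean differences ran from -0.38 to 0.41 on the log2 scale with a median of 0.14, against 0.01 for all tested probes. Irradiated cells had the higher mean in 100 of 114 values, or 87.7%, against 54.0% for all probes. These values share arrays and are not independent. The 95% intervals all held 0, and the widest were those of MYH11, from -1.64 to 1.29 at 6 hours and from -0.94 to 1.68 at 1 hour.

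**Figure D4:**
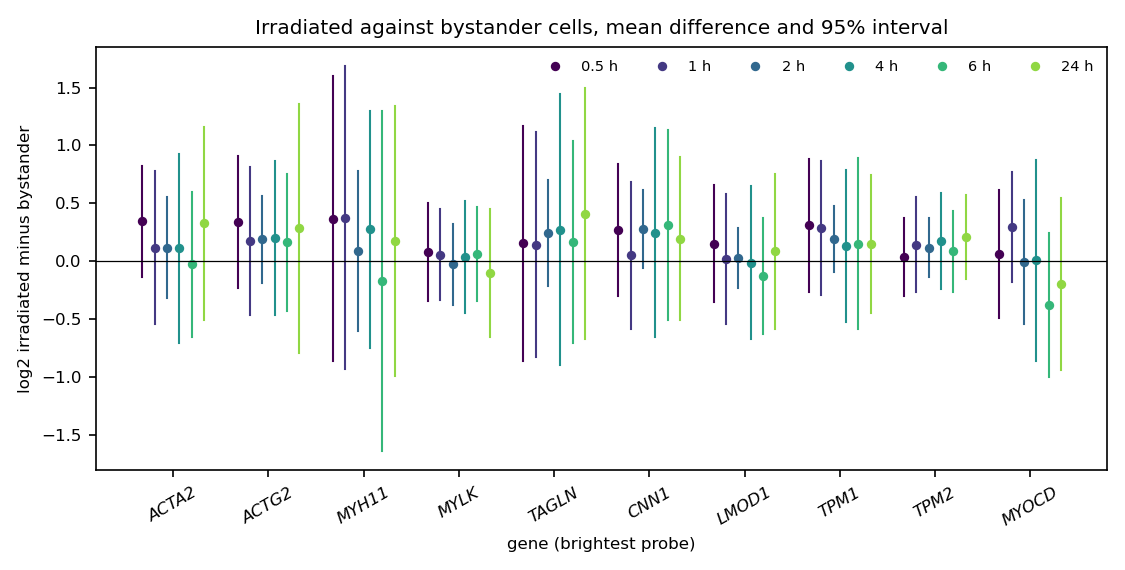
Mean log2 difference between irradiated and bystander cells (vertical axis) for the brightest probe of each of the 10 genes (horizontal axis), with colour for the time in hours and a line for the 95% interval of the fit to 12 arrays. All intervals hold 0, and the widest are those of MYH11.

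For ACTA2 the difference at 0.5 hours was 0.34, with the higher mean in irradiated cells. MYH11 differed by 0.37 at 0.5 hours and by -0.17 at 6 hours, and TAGLN by 0.41 at 24 hours. MYLK and LMOD1 stayed within -0.13 and 0.15 at all times. MYOCD was lowest in irradiated cells relative to bystanders at 6 hours, at -0.38.

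The other genes of the pathway were taken from 5 lists of 89 genes on the array, 79 of which had a probe past the filter. After irradiation 17 of 148 probes were lower and 4 higher at 0.5 hours, or 14.2%, where 8.72% of all probes were called. The genes that fell included MYL9, the regulatory myosin light chain, SMTN, or smoothelin, DES, the muscle intermediate filament protein desmin, and FLNA and ACTN1, which crosslink actin. The 4 that rose were SYNM, or synemin, an intermediate filament protein, PDLIM5, a LIM protein, KLF5, a transcription factor, and SKIL, an inhibitor of SMAD signalling. In bystander cells 16 probes were lower and 2 higher at 0.5 hours, or 12.2%, where 5.48% of all were called, and 0 were called at any later time. The 2 that rose in bystander cells were SYNM and SKIL. At 2 hours 8 were lower and 2 higher after irradiation, at 6 hours 11 and 4, and at 1, 4 and 24 hours 0. The array-wide shares at 2 and 6 hours were 4.68% and 10.2%. The medians of the 148 probes at 0.5 hours were -0.04 and -0.13. The total over the 6 times was 36 lower and 10 higher after irradiation, or 5.18%, where 4.1% of all values were called. Without experiment 1 it was 4 and 3, or 0.788% against 1.08% of all values, and without experiment 2 it was 7 and 0, or 0.788% against 0.877%, so the share was then below that of the array. Without experiment 3 it was 27 and 9, or 4.05% against 2.29%, and without experiment 4 it was 15 and 9, or 2.7% against 2.82%. The bystander total was 16 lower and 2 higher, or 2.03% against 1.06% of all values. It became 3 and 0 without experiment 1 (0.338% against 0.126%), 0 and 0 without experiment 2, 26 and 4 without experiment 3 (3.38% against 1.03%), and 11 and 7 without experiment 4 (2.03% against 1.57%).

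By list over the 6 times after irradiation, the proteins of the dense plaque, intermediate filaments and LIM family gave 11 lower and 2 higher of 198 values, or 6.57%, and TGF-β signalling 11 lower and 5 higher of 150, or 10.7%, beside the 4.1% of the array. The other actins and thin filament proteins gave 5 lower and 1 higher of 204, or 2.94%, and SRF with its co-factors and opposing factors 6 and 2 of 162, or 4.94%, both near that share. In bystander cells the same 4 lists gave 5 and 1, 3 and 1, 3 and 0, and 1 and 0, or 3.03%, 2.67%, 1.47% and 0.617%, beside the 1.06% of the array.

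MKL1, a co-activator that carries signals from actin to SRF, fell at 3 times after irradiation, by limma with Benjamini-Hochberg adjustment over all probes. Its ratios at 0.5 hours were -0.41, -1.09, -0.61 and -0.93 (mean -0.76 ± 0.31, adjusted p = 0.032). At 2 hours the mean was -0.51 ± 0.17 (adjusted p = 0.079) and at 6 hours -0.77 ± 0.73 (adjusted p = 0.099). In bystander cells MKL1 fell at 0.5 hours, with a mean of -0.85 ± 0.28 (adjusted p = 0.024). With slide added as a fixed block the limma adjusted p was 0.105, 0.207 and 0.064 at the 3 times after irradiation and 0.129 in bystander cells, so the 6-hour call alone was kept. Its relative MKL2 was called at no time, with means from -0.11 to 0.31 after irradiation. SRF itself was called at no time, with means from 0.02 to 0.65 in irradiated and from -0.22 to 0.60 in bystander cells, and its 2 other probes differed in sign from the brightest in 7 of 12 values after irradiation.

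ENG, or endoglin, a co-receptor for TGF-β, fell at 0.5, 2 and 6 hours in irradiated cells, with mean ratios of -0.61 ± 0.13, -0.49 ± 0.35 and -0.79 ± 0.51. In bystander cells it fell at 0.5 hours, with a mean of -0.55 ± 0.44 (limma adjusted p = 0.098), a call that was lost without any 1 of the 4 experiments and with slide as a fixed block. TGFB3, a TGF-β ligand, fell at 2 and 6 hours, with -0.71 ± 0.43 and -1.22 ± 1.02. DES fell at 0.5 hours, with -1.29 ± 0.92 after irradiation and -1.22 ± 0.99 in bystander cells, and again at 6 hours in irradiated cells. FLNA fell at both of these times, with -0.86 ± 0.60 and -0.91 ± 0.99. With slide as a fixed block ENG and FLNA kept their calls at 6 hours (limma adjusted p = 0.073 and 0.042), and the other calls of these 4 genes were lost.

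In bystander cells MYL9 fell at 0.5 hours with -1.03 ± 0.73 (limma adjusted p = 0.081), CSRP1, a LIM protein of smooth muscle, with -0.98 ± 0.34 (limma adjusted p = 0.027) and CNN2, the broadly expressed calponin, with -0.71 ± 0.33 (limma adjusted p = 0.044). With slide as a fixed block these 3 calls were lost, at limma adjusted p = 0.243, 0.148 and 0.126. Each call of a gene named from MKL1 to CNN2 was also lost without at least 1 of the 4 experiments. The cytoplasmic actins ACTB and ACTG1 were called at no time in either contrast. At 0.5 hours ACTB had mean ratios of -0.19 ± 0.58 and -0.15 ± 0.36 and ACTG1 of 0.01 ± 0.59 and 0.00 ± 0.42, where ACTA2 had -1.61 and -1.95.

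The genes whose ratios were most like those of ACTA2 were found by Pearson's r over the 24 pairs of irradiated and control arrays. These pairs come from 4 experiments and share controls with the bystander pairs. The highest outside the set were HBD (0.90), MSRB3 (0.89), MYL9 (0.89), POTEF (0.88), FARP1 (0.88) and LOXL2 (0.87). In bystander cells the same probes gave 0.90, 0.91, 0.82, 0.91, 0.89 and 0.89. POTEF encodes a protein with an actin part, and its probe may detect actin transcripts, which was not tested. Within the set r ran from 0.88 for LMOD1, 0.86 for the dimmer TPM2 probe and 0.83 for CNN1 and ACTG2 down to 0.09 for 1 TPM1 probe and -0.33 for MYOCD. The median over all tested probes was 0.01. Without experiment 4 at 0.5 hours and experiment 3 later, 18 pairs were left and the 6 genes gave 0.82, 0.83, 0.77, 0.78, 0.77 and 0.82. Over these 18 pairs r fell for the brightest probes of TAGLN and TPM1 from 0.77 to 0.44 and 0.47, and for MYH11 from 0.72 to 0.51, and in bystander cells from 0.71 to 0.32. LMOD1 then gave 0.80, ACTG2 0.77, CNN1 0.63 and MYOCD -0.18.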

How the data were processed

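The deposited scanner outputs of 72 arrays with 1 dye (Agilent Feature Extraction 9.1.3.1, per the file headers) give for each of 43376 spots the intensity that the authors' software had corrected for background, with quality flags. Nothing was normalized between arrays. The authors also deposited a table of log2 values, used here as an alternative, after scaling to the same 75th percentile.

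Control spots were left out, non-uniform spots set to missing, and spots of a probe averaged before the log2 was taken. Arrays were then scaled on the log2 scale to the same 75th percentile. Probes not well above background on more than 10% of arrays were removed. For each time point limma 3.58.1 in R 4.3.3 was fitted to 12 arrays with treatment and experiment, a trend of variance on intensity, and p-values adjusted by Benjamini-Hochberg over 25246 probes, with a threshold of 0.10. The script was tested on simulated data. No array had more than 3 saturated spots. The number of arrays limits the precision.

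The methods say that the dishes of an experiment came from 1 pool of cells, so the replicate number is a block. Same-numbered arrays deviated together, since at 4 and 6 hours 10 of 12 pairs had a correlation above 0.1 and at each other time all 12 did. The arrays of experiment 1 shared a slide at each time, and those of experiment 4 did from 1 hour on. The correlation thus cannot tell a shared experiment from a shared slide.

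The 10 genes and the pathway and marker lists were chosen with earlier results of these data known. Pathway genes are named if called at the most time points in a contrast, up to 6, with ties to the larger mean ratio, and SRF, MKL1, MKL2, ACTB and ACTG1 always. SMTN, ACTN1, SYNM, PDLIM5, KLF5, SKIL and, after irradiation, MYL9 were named after their values were seen. The results of 1 named gene and of 1 of the 5 pathway lists are not reported here. A gene is given by its brightest probe. The alternatives were no scaling, quantile normalization, normexp with an offset of 50, the authors' table, other filters, no block, no trend, 1 fit to 72 arrays, slide as a random block, 1 probe for each gene and leaving out each experiment. Slide as a fixed block and pairs on 1 slide were added after seeing the data.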

Additional observations from a re-analysis of the deposited data

Results flagged for a closer look

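In 13 of 132 sets of 4 experiments, 1 experiment lay far from the other 3, beyond the 95% critical value of Dixon's ratio. These sets share arrays and hold the ratios that chose the genes. The count is therefore set against no chance rate and only describes how the experiments differ. Experiment 4 at 0.5 hours gave 6 of them. Its median over the 19 probes was -1.83 after irradiation against -0.61 to -0.46 in the others, and -2.03 in bystander cells against -0.75 to -0.58. CNN1 gave -1.85 and -2.31 there, and LMOD1 -1.95 and -2.05. Experiment 3 gave 5 at later times. After irradiation TPM1 was -1.23 at 1 hour against 0.21 to 0.49, TAGLN -0.69 at 2 hours against 0.32 to 0.45, ACTG2 -0.98 at 6 hours against 0.49 to 0.67, and CNN1 -1.22 at 6 hours against 0.99 to 1.33. In bystander cells TPM2 was -1.02 at 24 hours against -0.32 to -0.21. MYLK was 0.45 in experiment 1 at 6 hours after irradiation, against -0.20 to -0.17. MYOCD was -2.20 in experiment 2 at 4 hours in bystander cells, against -0.03 to 0.11.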

How the results depend on the processing

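The 12 median ratios of the 19 probes moved by less than the spread between experiments under the alternatives run, except at 2 hours after irradiation without scaling (-0.31 against 0.08). Without scaling the median of all probes at that time was itself -0.38. Signs changed only for medians near 0. At 2 hours after irradiation the value was also below 0 with quantile normalization and without experiment 1 (-0.02 in both). The 6-hour values were above 0 without experiment 3 (0.21 and 0.22 in irradiated and bystander cells) and, in bystander cells, for pairs on 1 slide (0.27). Those pairs were of experiments 1 and 4 and also left out experiment 3. Member calls of irradiated against bystander cells were 0 in limma under each alternative. Without the replicate block, pathway calls were 0 lower and 0 higher in both contrasts, and member calls to control 0 at all times. Pathway calls after irradiation (36 lower, 10 higher) were 22 lower without the filter, 69 lower and 3 higher without scaling, 20 lower with normexp, and 11 lower and 6 higher with slide as a fixed block. In these fits 3.37%, 8.11%, 3.27% and 1.91% of pathway values were called, against 1.92%, 7.79%, 3.21% and 2.1% of all values, so the pathway share was below that of the array with the slide block. Leaving out 1 experiment gave 4 to 27 lower and 0 to 9 higher. Pathway calls in bystander cells (16 lower, 2 higher) were 32 lower and 1 higher with 1 fit to all 72 arrays, 1 higher without the trend, 2 lower and 16 higher without scaling, 8 higher with normexp, 0 and 0 with slide as a fixed block, and 9 lower with 1 probe for each gene. The first 5 of these called 3.72%, 1.35%, 2.03%, 3.38% and 0% of pathway values, against 2.44%, 0.838%, 2.67%, 1.78% and 0.192% of all, so the pathway share was below that of the array without scaling and with the slide block. Leaving out 1 experiment gave 0 to 26 lower and 0 to 7 higher. Member calls to control at 0.5 hours (7 and 9) were 4 after irradiation without the filter, where 3.98% of all probes were called, and 14 in bystander cells with normexp, beside 7.99%. Without scaling 6 were called after irradiation at 2 and at 6 hours, where 27.4% and 17.6% of all probes were. The causes were not tested. Signal over background limits the MYOCD values.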
